A study of Rattus norvegicus with 4 samples.

Results

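Granins and prohormone processing enzymes are the cargo and the tools of the endocrine secretory granule, and their transcripts were followed here in the oxyntic mucosa of the rat stomach, where acid is made. The members were all probe sets whose gene symbol on the Affymetrix RAE230A chip is Chga, Chgb, Scg2, Scg3, Scg5, Pcsk1, Pcsk2, Cpe, Pam or Ptprn. Of these 10 genes, 9 were named by a probe set, with 3 probe sets for Pam and 1 for each of the others, which gave 11 of the 15866 probe sets. Pcsk1 was not analysed here.

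The mucosa was scraped from female Sprague-Dawley rats, 8 weeks old per the labels. One arm received octreotide LAR, a slow-release depot of a somatostatin analogue, at 5 mg per animal, and the other received the depot's vehicle in matching volume. Both arms carry the label of 21 days, and the same housing, overnight fast and anaesthesia are given for both. Each of 3 octreotide LAR chips held RNA pooled from 2 animals, called pools 1 to 3 here, and 1 vehicle chip held RNA pooled from 8 animals. The vehicle sample was placed by its title, since its source name gives octreotide LAR. Scraped mucosa mixes many cell types. In bulk RNA, fewer cells of a type cannot be told apart from less RNA per cell.

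Endocrine cells pack peptide hormones into dense-core granules. Granins are acidic proteins that condense in the late Golgi and help to form the granule. Convertases then cleave the prohormone after paired basic residues, carboxypeptidase E trims the exposed basic residues, and Pam amidates the end of many peptides. In the oxyntic mucosa this machinery serves the enterochromaffin-like (ECL) cell, which stores histamine and is rich in chromogranin A, the somatostatin-making D cell and the ghrelin-making A-like cell. Somatostatin receptors on ECL cells restrain their histamine release.

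The promoter windows of 2 granins are shown: Chgb, which had the smallest p of the members tested, and Scg2, the granin whose octreotide LAR pools lay on both sides of the vehicle chip. Each window runs from 250 bases before to 50 bases after the start site, 5′ to 3′ on the gene's strand, from RefSeq's GRCr8 assembly. Capitals mark the full cAMP response element TGACGTCA, its core TGACG, the GC box GGGCGG and the left part of the RE1 silencer element, TTCAGCACC, each searched on both strands. The full element contains the core on each strand, so every full match is also a core match. The windows lie at chr3:140496462-140496761 (plus strand) for Chgb and chr9:88256817-88257116 (minus strand) for Scg2.
Chgb: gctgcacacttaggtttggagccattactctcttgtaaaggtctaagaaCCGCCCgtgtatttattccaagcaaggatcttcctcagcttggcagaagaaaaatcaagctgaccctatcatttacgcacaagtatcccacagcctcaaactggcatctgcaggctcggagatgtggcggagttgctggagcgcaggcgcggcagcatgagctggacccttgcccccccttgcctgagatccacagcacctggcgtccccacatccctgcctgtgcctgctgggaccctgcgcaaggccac
Scg2: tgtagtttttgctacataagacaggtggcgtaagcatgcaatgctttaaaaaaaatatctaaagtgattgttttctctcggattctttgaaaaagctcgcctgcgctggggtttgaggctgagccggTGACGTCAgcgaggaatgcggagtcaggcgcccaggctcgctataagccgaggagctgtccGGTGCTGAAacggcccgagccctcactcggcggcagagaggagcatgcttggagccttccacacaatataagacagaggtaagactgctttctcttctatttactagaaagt

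Of the 10 genes, 8 had a window in the RefSeq table (Chgb, Scg2, Scg3, Scg5, Pcsk2, Cpe, Pam and Ptprn). The core TGACG was in 7 of these 8 windows, all but that of Chgb, and in 21.2% of all 33469 windows. The full element was in the Scg2 window alone among the members, starting at base 128 of the window, and in 1.83% of all windows. The RE1 left part was likewise in the Scg2 window alone among the members, starting at base 189 on the opposite strand, and in 0.356% of all windows. The GC box was in 5 of the 8 windows and in 33.1% of all. Of the 6 genes with a window whose brightest probe set was below the vehicle chip on every pool (Chgb, Scg3, Scg5, Pcsk2, Pam and Ptprn), 5 held the core and 4 the GC box. The 2 whose pools lay on both sides (Scg2 and Cpe) both held the core, and Cpe held the GC box. The Chgb window held 1 GC box, starting at base 50, and none of the other motifs searched. These are matches of letters, not mapped sites.

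Signals on the 4 chips had nearly equal averages. The mean without the 2% at each end was 496.8 to 497.2, and the median signal was 223.7 to 233.4 on the octreotide LAR chips and 225.8 on the vehicle chip. Markers of the labelled tissue were bright: Atp4b, the beta subunit of the gastric proton pump, had signals of 35704.6 to 42462.4 on the octreotide LAR chips and 39973.9 on the vehicle chip. Genes of keratinising squamous epithelium were mostly higher on the octreotide LAR chips. Of the 12 such markers tested, 6 were called higher, where 0.105% of all probe sets tested were called in either direction. On every pool 11 of the 12 were above the vehicle chip, where 2376 of all 9520 probe sets tested were. The other, Sbsn, had signals of 1366.8, 1278.9 and 1122.3 in octreotide LAR pools 1, 2 and 3, against 1443.6 in the vehicle pool. The summed signal of the 15 on the chip was 7368.4 to 11480.3 in octreotide LAR pools, against 3518.6 in the vehicle pool. None of these 15 was listed at 0. The part of this difference in the results below was not tested, and the values of other oxyntic cell markers are given beside them.

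**Figure D1:**
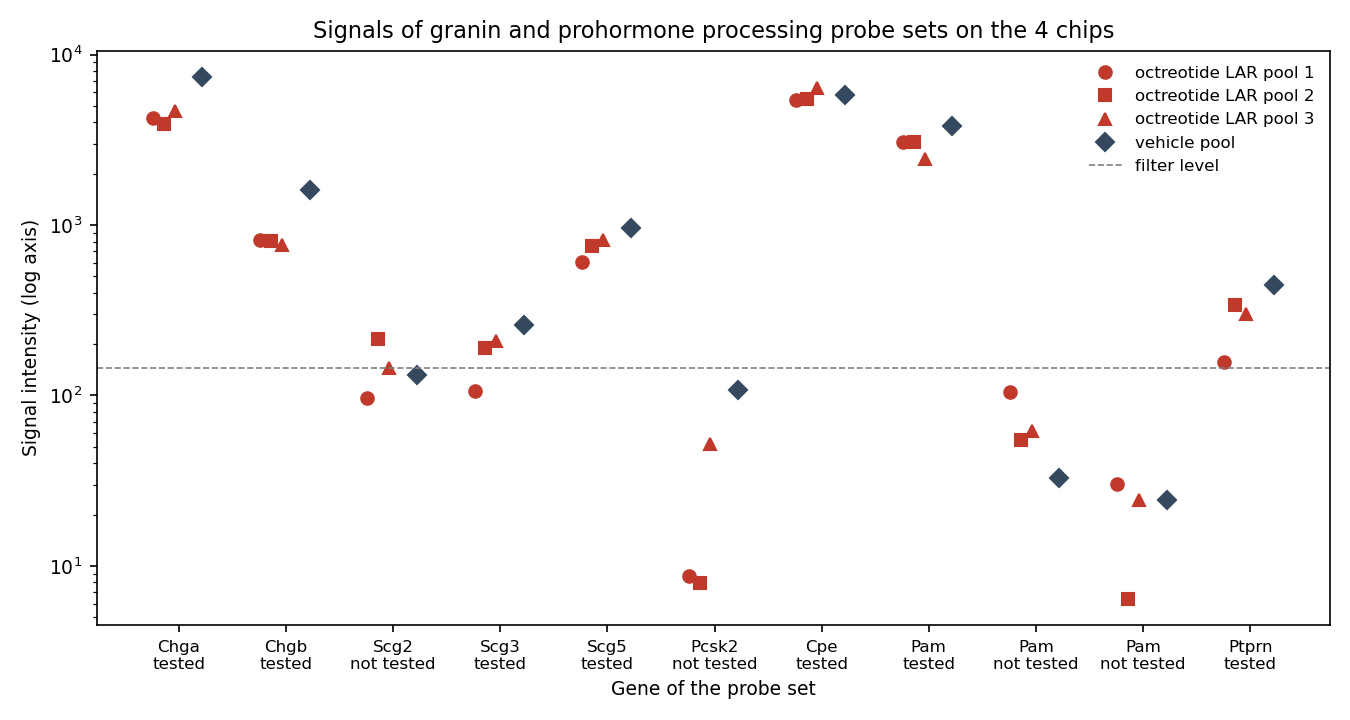
Signal intensity (log axis) of each of the 11 member probe sets, with the 3 octreotide LAR pools in red and the vehicle pool in dark blue; the dashed line is the filter level of 144.7. Chga, Chgb, Scg3, Scg5, Pcsk2, Ptprn and the brightest Pam probe set have every octreotide LAR pool below the vehicle pool.

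Octreotide LAR pools were set against the vehicle pool to ask whether transcripts of the granule's cargo and processing enzymes differed after exposure to the depot. On every octreotide LAR pool, 7 of the 11 member probe sets were below the vehicle chip, against 24.0% of all 15866 probe sets. One dim Pam probe set was above it on every pool, against 24.4% of all, and the other 3 lay on both sides. The median log2 difference of the 11 was -0.42, against -0.01 over all 15866, and on pools 1, 2 and 3 it was -0.65, -0.39 and -0.28. With the brightest probe set of each gene alone, the median of the 9 was -0.62. All log2 differences are of signal + 16, octreotide LAR minus vehicle, which understates the change of dim probe sets.

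Of the 11 probe sets, 7 passed the filter on low signal and were tested with limma (Chga, Chgb, Scg3, Scg5, Cpe, Ptprn and 1 of Pam). None of the 7 was called at a Benjamini-Hochberg adjusted p under 0.05, where 0.105% of the 9520 probe sets tested were called in either direction and 0.0105% were called lower. At an unadjusted limma p under 0.05, 3 of the 7 were lower (Chgb, Chga and Pam) and none higher, where 1.71% of all probe sets tested were lower and 4.57% passed in either direction. The vehicle arm is a single chip, so its own spread is not measured and the test borrows that of the octreotide LAR chips. The 2 chromogranins passed whenever any 1 pool was left out, with the same vehicle chip and a spread taken from fewer chips, so those passes are no independent support.

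Chromogranin B and chromogranin A, acidic cargo proteins of endocrine granules, had the smallest p-values of the members, and their pools lay close together. Chgb had signals of 820.7, 802.1 and 763.7 in octreotide LAR pools 1, 2 and 3, against 1607 in the vehicle pool. The 3 pools thus lay within a narrow band far below the vehicle value, at a mean of 795.5 ± 29.1 (SD, n = 3), 49.5% of it. The log2 difference lay at -1.0, with limma's 95% interval running from -1.42 to -0.58 and a standard error of 0.20 (limma adjusted p = 0.105, 0.00155 to 0.556 over the alternatives). By p it was the probe set at rank 16 of the 9520 tested.

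Chga had signals of 4231.6, 3895.9 and 4660.1 in octreotide LAR pools 1, 2 and 3, against 7406.7 in the vehicle pool. Every pool was well below the vehicle value, and the mean of 4262.5 ± 383 (SD, n = 3) was 57.5% of it. The log2 difference lay at -0.80, with limma's 95% interval running from -1.15 to -0.44 and a standard error of 0.16 (limma adjusted p = 0.151, 0.00114 to 0.829 over the alternatives). It ranked 18 by p among the 9520. Chgb and Chga were the members tested that lay at least 1.5-fold below the vehicle chip on every pool, as 0.42% of the probe sets tested did.

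The log2 difference of Chgb minus that of Chga was -0.15, -0.06 and -0.39 on pools 1, 2 and 3. Chgb was the lower of the pair on each pool, by a mean of 0.20 that is close to its SD of 0.17 over the 3 pools, and the 2 differences share the vehicle chip.

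Of the secretogranins, Scg3 was tested and Scg2 was not. Scg3, which binds chromogranin A and cholesterol-rich granule membrane, had signals of 106.5, 188.9 and 209.5 in octreotide LAR pools 1, 2 and 3, against 257.8 in the vehicle pool. All pools were below the vehicle value, but pool 1 stood far under pools 2 and 3. The log2 difference was -0.62 (95% interval -1.48 to 0.24), and it did not pass (limma adjusted p = 0.9998). Without pool 1 it was -0.35.

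Scg2, the precursor of secretoneurin, had signals of 96.7, 215.4 and 144.4 in octreotide LAR pools 1, 2 and 3, against 131.8 in the vehicle pool. The pools lay on both sides of the vehicle value, at log2 differences of -0.39, 0.65 and 0.12. The filter acts on the mean log2 level, which for Scg2 equals a signal of 141.7, just under the filter level of 144.7, so it was not tested. Its spread over pools, an SD of 0.52 on the log2 scale, exceeded its mean difference of 0.12.

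Among the convertases, Pcsk2, the enzyme that makes many of the late cuts in prohormones, was dim. It had signals of 8.7, 7.9 and 51.6 in octreotide LAR pools 1, 2 and 3, against 107 in the vehicle pool. Every pool was below the vehicle value, and the whole probe set lay under the filter level, so it was not tested. Its log2 difference of -1.85 depends on the pseudocount: it was -2.71 with 1 and -1.02 with 64 in place of 16. Such a pattern was more frequent with dim probe sets included: 2.28% of all 15866 probe sets, against 0.42% of those tested, were at least 1.5-fold below the vehicle chip on every pool.

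Scg5, the chaperone that keeps Pcsk2 inactive until it reaches the granule, had signals of 603.2, 757.2 and 821.2 in octreotide LAR pools 1, 2 and 3, against 956.8 in the vehicle pool. All pools were below the vehicle value, pool 3 only slightly. The log2 difference was -0.40 (95% interval -0.89 to 0.09), which did not pass (limma adjusted p = 0.9998).

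Of the enzymes that finish a peptide, Pam was lower on every pool by its bright probe set, while Cpe was close to the vehicle level. Cpe, carboxypeptidase E, had signals of 5397, 5458 and 6405.2 in octreotide LAR pools 1, 2 and 3, against 5816.9 in the vehicle pool. The pools lay on both sides of the vehicle value. The log2 difference of Cpe was -0.02 (95% interval -0.37 to 0.33), and the mean differences of Chgb and Chga lie below that interval. On pools 1, 2 and 3 the log2 difference of Chga minus that of Cpe was -0.70, -0.83 and -0.81, and that of Chgb minus that of Cpe was -0.85, -0.90 and -1.20. Both gaps ran the same way on all 3 pools, at a mean of -0.78 ± 0.07 for Chga and -0.98 ± 0.19 for Chgb (SD, n = 3), where the SD holds no error of the vehicle chip. The difference between these genes was not tested.

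Pam, the amidating monooxygenase, gave 3 probe sets. The brightest had signals of 3079.8, 3089.5 and 2452.2 in octreotide LAR pools 1, 2 and 3, against 3820.1 in the vehicle pool. All pools were below the vehicle value, at a mean of 75.2% of it, and the log2 difference was -0.42, between -0.81 and -0.02 at 95% (limma adjusted p = 0.9998). A second probe set, which the platform annotation assigns to the same sequence record, had signals of 104.4, 54.8 and 61.8 in octreotide LAR pools 1, 2 and 3, against 32.8 in the vehicle pool. It was thus above the vehicle value on every pool where the bright one was below it. The third had signals of 30.1, 6.4 and 24.2 in octreotide LAR pools 1, 2 and 3, against 24.2 in the vehicle pool. Both dim probe sets lay under the filter level and were not tested.

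Ptprn, a phosphatase-like protein that spans the granule membrane and is known as an islet autoantigen, had signals of 156.2, 338 and 301.3 in octreotide LAR pools 1, 2 and 3, against 446.7 in the vehicle pool. All pools were below the vehicle value, with pool 1 at a log2 difference of -1.43 and pools 2 and 3 at -0.39 and -0.54. The mean log2 difference was -0.79 (95% interval -1.58 to 0.01), which did not pass (limma adjusted p = 0.9998), and it was -0.47 without pool 1. Its paralog Ptprn2 had signals of 1133.7, 1073.3 and 1206.4 in octreotide LAR pools 1, 2 and 3, against 1327.6 in the vehicle pool, also below it on every pool, at a log2 difference of -0.22.

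Pool 1 was the lowest of the pools for 4 of the 7 members tested: Scg3, Scg5, Ptprn and, by a small margin, Cpe. Pool 3 was the highest for 4 of the 7. Scg3 and Ptprn were at -1.16 and -1.43 on pool 1 and between -0.54 and -0.28 on the other pools, while Chga and Chgb ranged from -1.06 to -0.67 over all 3. Pool 1 was also the pool with the largest summed signal of squamous markers, 11480.3. The same held for parietal cell markers at 74246, smooth muscle and fibroblast markers at 82368.7, and neuron and glia markers at 2371.4. The sums of ECL markers and of other gastric endocrine markers were largest on pools 2 and 3, at 3252 and 26365.6. The part of these sums in the order of the pools was not tested.

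**Figure D2:**
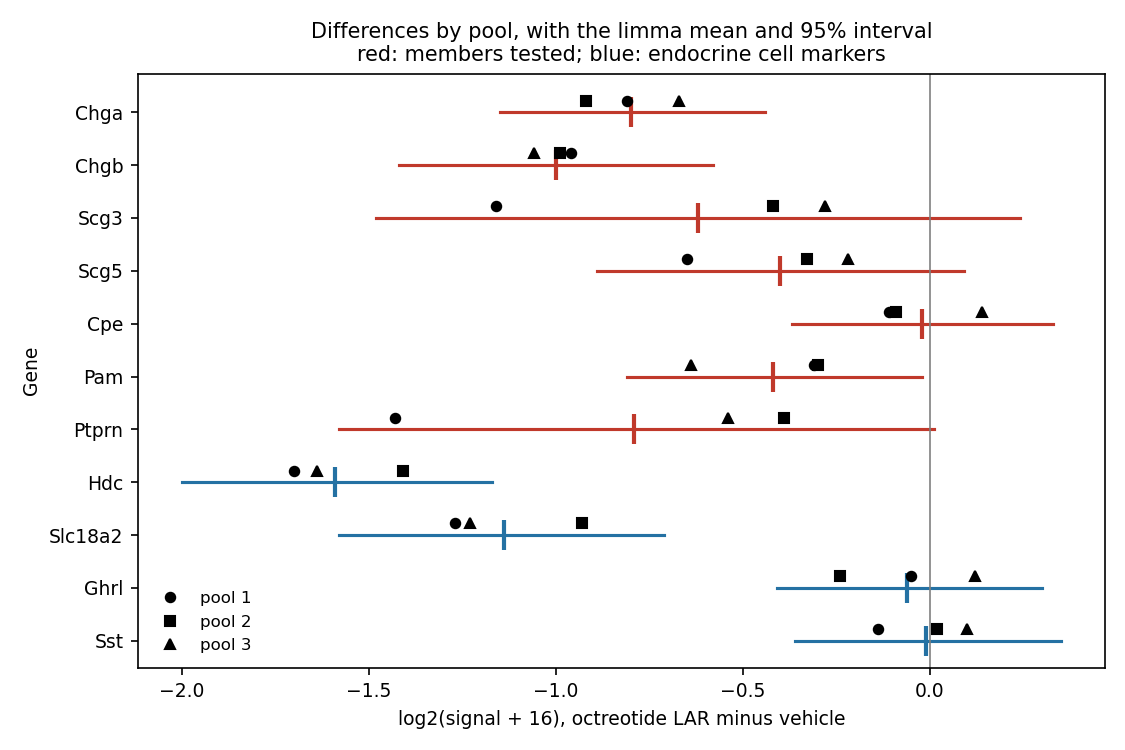
Difference in log2(signal + 16), octreotide LAR minus vehicle, of the 7 members tested (red) and of 4 endocrine cell markers (blue); black symbols are pools 1 to 3, bars the limma mean and lines its 95% interval. The intervals of Chga and Chgb lie below 0, from -1.15 to -0.44 and from -1.42 to -0.58, while those of Cpe, Ghrl and Sst include 0.

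Set beside markers of single endocrine cell types, the mean differences of the chromogranins lay between that of Hdc and those of Ghrl and Sst. Hdc, which makes the histamine of ECL cells from histidine, was called lower, at a log2 difference of -1.59 (limma adjusted p = 0.00268), and Slc18a2, the vesicular transporter that loads histamine into the granule, was at -1.14 (limma adjusted p = 0.0556). Chga minus Hdc was 0.90, 0.48 and 0.98 on pools 1, 2 and 3, so Hdc was the lower on each. Chgb minus Hdc was 0.75, 0.42 and 0.59, again with Hdc the lower on each pool. Chga minus Slc18a2 was 0.46, 0.00 and 0.56, a mean of 0.34 that slightly exceeds its SD of 0.30. Chgb minus Slc18a2 was 0.31, -0.06 and 0.17, a mean of 0.14 that is within its SD of 0.19. The SDs of these gaps hold no error of the vehicle chip, which all pools share, and the gaps were not tested. These gaps use the brightest Slc18a2 probe set. A second, dimmer one was at log2 differences of -1.41, -0.41 and -0.68 on pools 1, 2 and 3. Its mean of -0.83 lies between those of Chgb and Chga, so the order of Slc18a2 and the chromogranins depends on the probe set.

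Ghrl, ghrelin of A-like cells, had signals of 17039.7, 15019.2 and 19230.6 in octreotide LAR pools 1, 2 and 3, against 17694.3 in the vehicle pool. Sst, the somatostatin of D cells, had signals of 3554.6, 3958.5 and 4193.5 in octreotide LAR pools 1, 2 and 3, against 3908.8 in the vehicle pool. For both hormones the vehicle value lay within the range of the pools. Chga minus Ghrl was -0.75, -0.69 and -0.79 on pools 1, 2 and 3, a mean of -0.74 ± 0.05 (SD, n = 3), and Chgb minus Sst was -0.82, -1.01 and -1.16, a mean of -0.99 ± 0.17 (SD, n = 3). The chromogranins were thus the lower of each pair on every pool. None of these gaps between genes was tested, and their SDs hold no error of the vehicle chip. Ghrl and Sst were among 7 tested markers of gastric endocrine cells other than ECL cells, and none was called. In the mean 6 of the 7 were lower and 1 higher, where 50.6% of all probe sets tested were lower. Cck and Gal, at log2 differences of -0.58 and -0.48, were below the vehicle chip on every pool, where 24.0% of probe sets tested were. Rbp4 at -0.28 and Gast at 0.25 had pools on both sides. The median of the 7 was -0.06.

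Granin transcripts are also made by enteric neurons. Of 14 neuron and glia markers on the chip, 5 passed the filter and none was called. Their summed signal over all 14 was 2164.7 to 2371.4 in octreotide LAR pools, against 2182 in the vehicle pool, which lay within that range, and none was listed at 0. In the mean 4 of the 5 tested were lower and 1 higher, where 50.6% of all probe sets tested were lower. On every pool 2 were below the vehicle chip, where 24.0% of all probe sets tested were. These were Npy, a neuropeptide, at a log2 difference of -0.36, and Uchl1, a neuronal ubiquitin hydrolase, at -0.14. Prph, a neuronal intermediate filament, at 0.34, was above the vehicle chip on every pool, where 2376 of the 9520 probe sets tested were. S100b, at -0.11, had pools on both sides. The summed signal of the 6 ECL markers on the chip was 2635.3 to 3252 in octreotide LAR pools, against 6576.2 in the vehicle pool. Without Hdc and Slc18a2, the other 4 summed to 568.3 to 760.6 in octreotide LAR pools, against 802.3 in the vehicle pool. Among these, the gastrin receptor Cckbr was at -0.47, while the decarboxylase Ddc at -0.27 and the somatostatin receptor Sstr2 at 0.11 had pools on both sides of the vehicle chip.

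Parietal cell markers summed to 62666.3 to 74246 in octreotide LAR pools, against 70562.6 in the vehicle pool, a sum made up mostly of the proton pump genes Atp4a and Atp4b, at log2 differences of -0.02 and -0.07. The 5 tested all had a mean below the vehicle value, where 50.6% of all probe sets tested did. On every pool 3 were below it, where 24.0% of all probe sets tested were. None of the 5 was called. Their median log2 difference was -0.37, with the potassium channel subunits Kcnq1 and Kcne2 at -0.58 and -0.37 and the exchanger Slc9a4 at -0.50. The part of these parietal differences in those of the members was not tested. Smooth muscle and fibroblast markers summed to 68035.5 to 82368.7 in octreotide LAR pools, against 73684.8 in the vehicle pool.

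Other genes of the processing pathway lay on both sides of the vehicle level. Of 18 on the chip (further convertases, carboxypeptidases, cathepsins, sulfotransferases and granin relatives), 13 were tested, 7 were lower and 6 higher in the mean, and none was called, where 50.6% of all probe sets tested were lower in the mean. Their median log2 difference was 0.00. Cpd, a carboxypeptidase of the constitutive pathway, had signals of 9517.3, 9654 and 8248.7 in octreotide LAR pools 1, 2 and 3, against 7033.3 in the vehicle pool, above it on every pool, at a log2 difference of 0.37, between 0.03 and 0.72 at 95% (limma adjusted p = 0.9998). Pcsk7, a convertase of the general secretory route, and Tpst2, a tyrosine sulfotransferase, were likewise above the vehicle chip on every pool, at 0.44 and 0.37. Of the 13 tested, 3 were thus above it on every pool, where 2376 of the 9520 probe sets tested were. Ptprn2 was the 1 below it on every pool, where 24.0% of all probe sets tested were. Furin, the convertase of the Golgi in most cells, was at -0.09 (95% interval -0.52 to 0.35).

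Genes of the machinery that docks and fuses granules were mostly lower in the mean by small amounts. Of 30 such genes on the chip, 18 were tested. In the mean 14 were lower and 4 higher, where 50.6% of all probe sets tested were lower. On every pool 5 were below the vehicle chip, where 24.0% of all probe sets tested were. Another 4 were above it on every pool, where 2376 of the 9520 probe sets tested were. None was called. Their median log2 difference was -0.13, against 0.00 over all probe sets tested. Rab3b, a small GTPase of regulated secretion, was at -0.52, Syp, the vesicle protein synaptophysin, at -0.38, and Sv2b, a vesicle glycoprotein, at -0.50, the last with -1.31 on pool 3 and 0.06 on pool 1. Syt5, a calcium sensor, was at 0.44. Snap25, a fusion protein of neurons and endocrine cells, had signals of 303.9, 316.7 and 312.4 in octreotide LAR pools 1, 2 and 3, against 338.6 in the vehicle pool. Of the endocrine transcription factors, 9 were on the chip and 3 were tested: Isl1 at 0.29, Foxa2 at 0.06 and St18 at -0.46, none called.

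**Figure D3:**
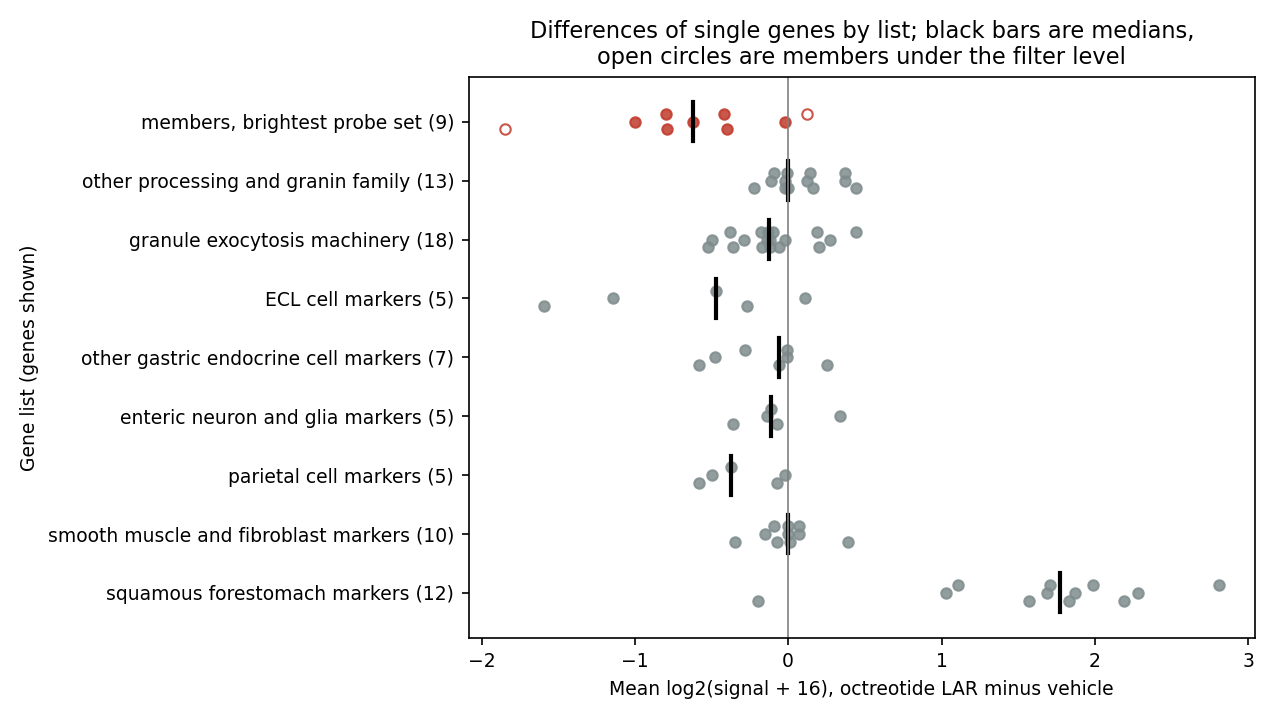
Mean difference in log2(signal + 16), octreotide LAR minus vehicle, of the brightest probe set of each of the 9 member genes (red; open circles are Pcsk2 and Scg2, under the filter level) and of the tested genes of 8 other lists (grey); black bars are medians. The members' median is -0.62, that of the other processing genes 0.00, that of the exocytosis genes -0.13 and that of the squamous markers 1.77.

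Likeness to the chromogranins was measured as the root mean square distance between the 3 log2 differences of a probe set and those of Chga or Chgb, over 4 chips that share 1 vehicle value. Nearest to Chga among named probe sets tested, members aside, were those of Mier2, Rtn4, Prkar1b (a regulatory subunit of protein kinase A), Ptpn13 (a tyrosine phosphatase) and Cryz, at distances of 0.070 to 0.11. Nearest to Chgb were those of Ube2g1 (a ubiquitin-conjugating enzyme), Cyp2a3 (a cytochrome P450 whose family has near-identical members), Abca3 (a lipid transporter), the same Rtn4 probe set and Slc18a2, at 0.18 to 0.21. The Rtn4 probe set was dim, with signals of 132.6, 116 and 127 in octreotide LAR pools 1, 2 and 3, against 232.4 in the vehicle pool. Chga lay at 0.24 from Chgb. Ranked among the same named probe sets, Chgb came at 51 by nearness to Chga, and Chga at 8 by nearness to Chgb. Among the other members, Ptprn was the next nearest to Chgb, at 0.53 and rank 201, and Scg3 the next nearest to Chga, at 0.42 and rank 304. Many named probe sets outside the members were thus nearer than these. With so few chips, such likeness is a description only.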

How the data were processed

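Expression was measured on 4 Affymetrix RAE230A chips, and the authors deposited a linear intensity for every probe set on each. How it was computed and whether chips were scaled is not given in the sources used here. Detection calls were not used. Per the file headers, the chips shared 1 lot and 1 wash protocol and used 4 fluidics modules. Signals were taken as log2(signal + 16) with no further normalization. Probe sets whose mean log2 level over all chips was under the 40th percentile (a signal of 144.7) were left out, which left 9520. The 3 octreotide LAR chips were compared with the vehicle chip by limma 3.58.1 under R 4.3.3 (lmFit, then eBayes with an intensity trend). Tests were two-sided, adjusted after Benjamini-Hochberg over all 9520 and called at 0.05, on 2 residual and 11.5 prior degrees of freedom. The single vehicle chip is assumed to vary like the octreotide LAR chips, and the number of chips limits the precision. The fit was tested on simulated chips with known changes.

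Gene names come from the platform annotation and were brought up to date by Entrez ID with the GRCr8 gene table (12748 of 12783 single-gene probe sets matched); 312 named several genes and 2771 are unnamed here. In lists, a gene is represented by its brightest probe set. The members and lists were chosen with earlier results of these data known. The text names all member probe sets, 4 endocrine markers and the 5 probe sets most like Chga and Chgb. It also names genes from the 4 with the smallest p of each list, except the squamous, smooth muscle and islet lists. Of 6 islet hormone genes on the chip 1 was tested, Ins1, at a log2 difference of -0.71 and not called. Furin, Snap25, Atp4a, Sstr2, Ins1, Sbsn, the second Slc18a2 probe set and the squamous, parietal and smooth muscle sums were added to the text after their values were seen. Alternatives changed the pseudocount, filter, scaling, moderation, probe sets per gene and the chips included.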

Additional observations from a re-analysis of the deposited data

How the results depend on the processing

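Chgb and Chga kept a negative difference under all 11 alternatives to the fit, at log2 differences of -1.02 to -0.96 and -0.86 to -0.74. Every pool lay below the same vehicle value for both genes, so of these alternatives only the scaling could have changed the sign. The count of members called lower was 0 with all chips and 2 (Chga and Chgb) without pool 1, 2 or 3 (lowest and highest 2), and 0 under the 8 alternatives that kept all chips, where 2 to 4 members were lower at an unadjusted limma p under 0.05. The count of probe sets called was 10 and became 0 without a filter, where 776 had an unadjusted limma p under 0.05, 1 when the spread had no trend, and 5 with the filter at the 20th percentile, after centring chips on their 75th percentile or after quantile normalization; without 1 pool it was 31 to 55. The median difference of the members was -0.62 with 1 probe set per gene, against -0.42 over all, and otherwise -0.49 to -0.41. Cpe, at -0.02 with all chips, was at 0.02 without pool 1 and without pool 2 and at -0.10 without pool 3. No paired analysis was possible because a single vehicle pool of 8 animals stood against 3 octreotide LAR pools of other animals. With 1 vehicle chip, a peculiarity of that pool and an effect of octreotide LAR cannot be told apart.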
